A study of Oryctolagus cuniculus with 24 samples.

Results

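Lamina propria mononuclear cells (LPMC) of the caecum of rabbits that received ova of the pig whipworm Trichuris suis (TSO) and then dextran sulphate sodium (DSS) were compared with those of rabbits that received neither agent. The libraries were taken by their treatment labels, not by measured values. The comparison takes 6 of the 24 libraries of the series, 3 of the group TSO DSS and 3 of the group Veh Water, and each library came from another rabbit. The series holds 12 New Zealand White rabbits, 8 to 10 weeks old on arrival, in 4 groups of 3, and from each rabbit both LPMC and intestinal epithelial cells (IEC) were sequenced. TSO DSS rabbits received 3 intragastric doses of 2500 ova on days 1, 14 and 21, followed by 0.1% DSS in the drink for 5 days from day 26. Veh Water rabbits received the vehicle and no DSS. The remaining groups were given DSS after the vehicle (Veh DSS) or ova without DSS (TSO Water). All tissue was taken on day 35. Room A housed the 3 TSO DSS rabbits and 2 of the 3 Veh Water rabbits, while Veh Water rabbit 1 was housed in room B, as was TSO Water rabbit 2.

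The lamina propria is the connective tissue layer under the gut epithelium, and its mononuclear cells include T cells, B cells, antibody-secreting plasma cells, macrophages and dendritic cells. DSS is a sulphated polysaccharide that injures the colonic and caecal epithelium and leads to an inflammatory infiltrate of the layer below. Whipworms live in the large intestine, and their larvae provoke a type 2 immune response, in which eosinophils, mast cells and mucus-producing goblet cells take part. The question of the comparison was how far the LPMC of rabbits given both agents differed from those of healthy rabbits. LPMC were isolated by removing the epithelium, digesting the tissue with collagenase and collecting cells on a density gradient. A library therefore averages over a mixture of cell types, and fewer cells of a type cannot be told apart from less RNA per cell.

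Each deposited table gives a normalised value for every gene in every library, made of whole reads multiplied by 1 factor a library. The whole reads behind the values were recovered, and they summed to 8281577, 13831162 and 3685504 in TSO DSS rabbits 1 to 3 and to 14042281, 11229066 and 11158189 in Veh Water rabbits 1 to 3. The library of TSO DSS rabbit 3 was the smallest, with 8374 genes at 10 or more reads, against 9439 to 10338 in the other 5 libraries. The share of reads from mitochondrial genes was 12.8%, 18.8% and 9.06% for the TSO DSS rabbits, and for the Veh Water rabbits it was 13.5%, 23.5% and 24.98%. Genes are listed by Ensembl identifier with a chromosome and a strand, and the files do not pair the identifiers with gene symbols. The label LPMC, the lists of cell type markers and the pathway lists could therefore not be checked gene by gene. Genes are described here by chromosome and strand, by level and by their behaviour in the other libraries. Identifiers are given for the 2 genes in each direction with the smallest adjusted p-value.

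The LPMC of TSO DSS rabbits differed from those of Veh Water rabbits mainly by lower expression. Of 11059 genes tested, 544 were lower in TSO DSS and 89 were higher, by limma. Genes counted as called had a p-value under 0.05 after the Benjamini-Hochberg adjustment and a log2 fold change of more than 1 in either direction. These are 4.92% and 0.805% of the genes tested, together 633 genes or 5.72%, and 85.9% of the called genes were lower. The falls were also the larger changes. The median log2 fold change was -3.05 over the lower genes and 2.07 over the higher genes, against -0.05 over all genes tested. Of the lower genes, 280 fell by more than 3 on the log2 scale, and 18 of the higher genes rose by more than 3. No called gene had values that overlapped between the groups, which also held for 29.7% of all genes tested.

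**Figure D1:**
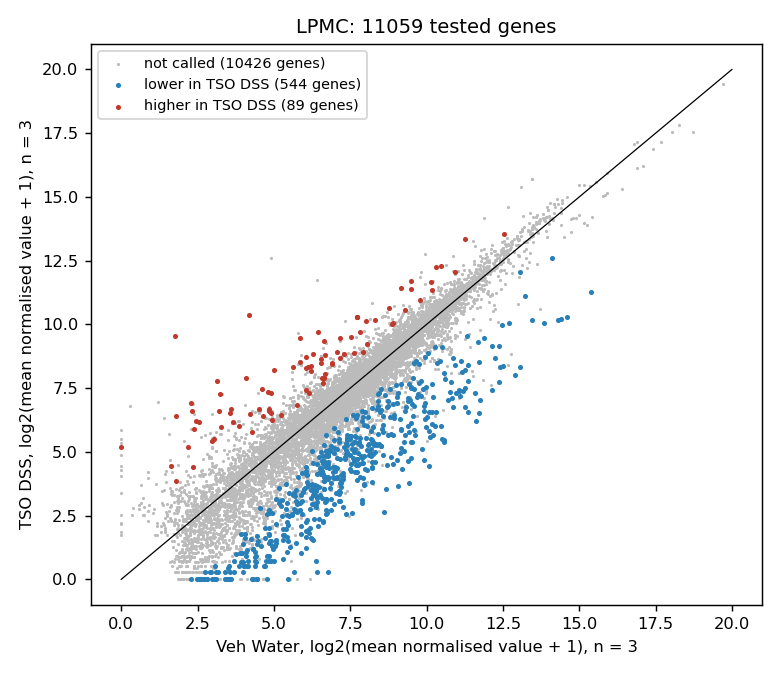
Mean normalised value of each of the 11059 tested genes in LPMC of Veh Water (x axis) and TSO DSS (y axis), 3 rabbits each, as log2(mean value + 1), with the line of equal values in black. The 544 lower genes (blue) lie below the line over most of the range of levels, and the 89 higher genes (red) above it.

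The lower genes made up a visible part of the transcriptome of healthy LPMC. They held 6.78%, 5.48% and 4.17% of the non-mitochondrial reads in Veh Water rabbits 1 to 3, or 5.48% ± 1.30 (SD, n = 3), and 0.654%, 0.913% and 0.465% in TSO DSS rabbits 1 to 3, or 0.677% ± 0.224 (SD, n = 3). The lowest Veh Water rabbit thus stood above the highest TSO DSS rabbit. The 89 higher genes held 0.333%, 0.351% and 0.296% in Veh Water (0.327% ± 0.0278, SD, n = 3) and 1.06%, 0.932% and 1.15% in TSO DSS (1.05% ± 0.110, SD, n = 3). Since the genes were chosen by this contrast, these shares describe the size of the 2 sets and were not tested.

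Among the 5 most abundant lower genes, 4 were reduced to a similar extent. The most abundant lies on the plus strand of chromosome 7, with normalised values of 3390, 2983 and 1095 in TSO DSS rabbits 1 to 3 and 51160, 39500 and 36480 in Veh Water rabbits 1 to 3. The mean was 17.0-fold lower, with a log2 fold change of -4.23 (SE 0.453, limma adjusted p = 0.0113). A gene on the minus strand of chromosome 10 had values of 1530, 1590 and 636 in TSO DSS and of 30660, 22670 and 21240 in Veh Water (log2 fold change -4.40, SE 0.389, limma adjusted p = 0.0108). In both genes every TSO DSS rabbit lay more than a factor of 10 below every Veh Water rabbit. On the minus strand of chromosome 4, a gene had values of 1231, 2073 and 275 against 32230, 17730 and 15500, and its log2 fold change was -4.54. On the plus strand of chromosome 19, a gene had values of 1490, 1312 and 641 against 24980, 20090 and 16270, with a log2 fold change of -4.22. In all 4 genes TSO DSS rabbit 3, which had the smallest library, was the lowest. The remaining gene of the 5, on the minus strand of chromosome 13, fell less. The TSO DSS rabbits had values of 7006, 6499 and 5424 and the Veh Water rabbits of 20240, 20430 and 12020 (log2 fold change -1.44, SE 0.266, limma adjusted p = 0.0334).

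The lower genes with the smallest adjusted p-value had Veh Water means of 109 to 3135. ENSOCUG00000000092, on the minus strand of chromosome 19, had normalised values of 82.2, 88.6 and 47.1 in TSO DSS and of 4318, 2589 and 2498 in Veh Water. It was 43.2-fold lower (log2 fold change -5.42, SE 0.325, limma adjusted p = 0.00732). ENSOCUG00000008813, on the plus strand of chromosome 8, had 0, 1 and 0 reads in TSO DSS rabbits 1 to 3 and 168, 114 and 124 reads in Veh Water rabbits 1 to 3. Set against a floor of 3 reads per library, it was at least 25.7-fold lower (limma adjusted p = 0.00732). The next by this order, on the minus strand of chromosome 12, had values of 11.3, 10.5 and 17.3 against 308, 276 and 304, and the one after it, on the minus strand of chromosome 1, had values of 16.9, 24.9 and 14.9 against 776, 498 and 472. For both, the spread within either group was small beside the difference between the groups, which follows from choosing genes by the smallest p-value.

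Loss of signal down to the detection limit was seen for a subset. In all 3 TSO DSS libraries, 81 of the 544 lower genes were at or under 3 reads, and 27 of these were listed at 0 in each library. The most abundant of the 81 in Veh Water was ENSOCUG00000008813. A gene on the minus strand of chromosome 4 had 0, 1 and 0 reads against 79, 36 and 174 (at least 19.6-fold lower), and a gene on the plus strand of chromosome 9 had 0, 3 and 0 reads against 141, 80 and 88 (at least 19.3-fold lower). At the other end, 25 of the lower genes kept more than 100 reads in every TSO DSS library. None of the 544 lower genes was listed at 0 in a Veh Water library. A value of 0 can be a failed estimate in these tables, since a mitochondrial gene was listed at 0 in TSO DSS rabbit 2 and Veh Water rabbit 2 and had 89880 to 933820 reads in the other 4 libraries.

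On the log2(value + 1) scale, the largest fall had the largest SE of the lower genes named here. It was that of a gene on the minus strand of chromosome 12, with values of 1.13, 36.8 and 0 in TSO DSS and of 262, 1134 and 671 in Veh Water (log2 fold change -7.08, SE 1.39, limma adjusted p = 0.0397). TSO DSS rabbit 2 stood apart from the other TSO DSS rabbits, and the Veh Water rabbits differed more than 4-fold among themselves. It was not called by edgeR's quasi-likelihood test. Its rank depends on the scale. By the ratio of group means it was 54.5-fold lower, and a gene on the minus strand of chromosome 11 was 75.5-fold lower. The chromosome 12 gene was also lower in IEC of TSO DSS, at 1.22, 11.2 and 10.1 against 749, 545 and 452 in IEC of Veh Water (log2 fold change -6.41, limma adjusted p = 0.0059).

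**Figure D2:**
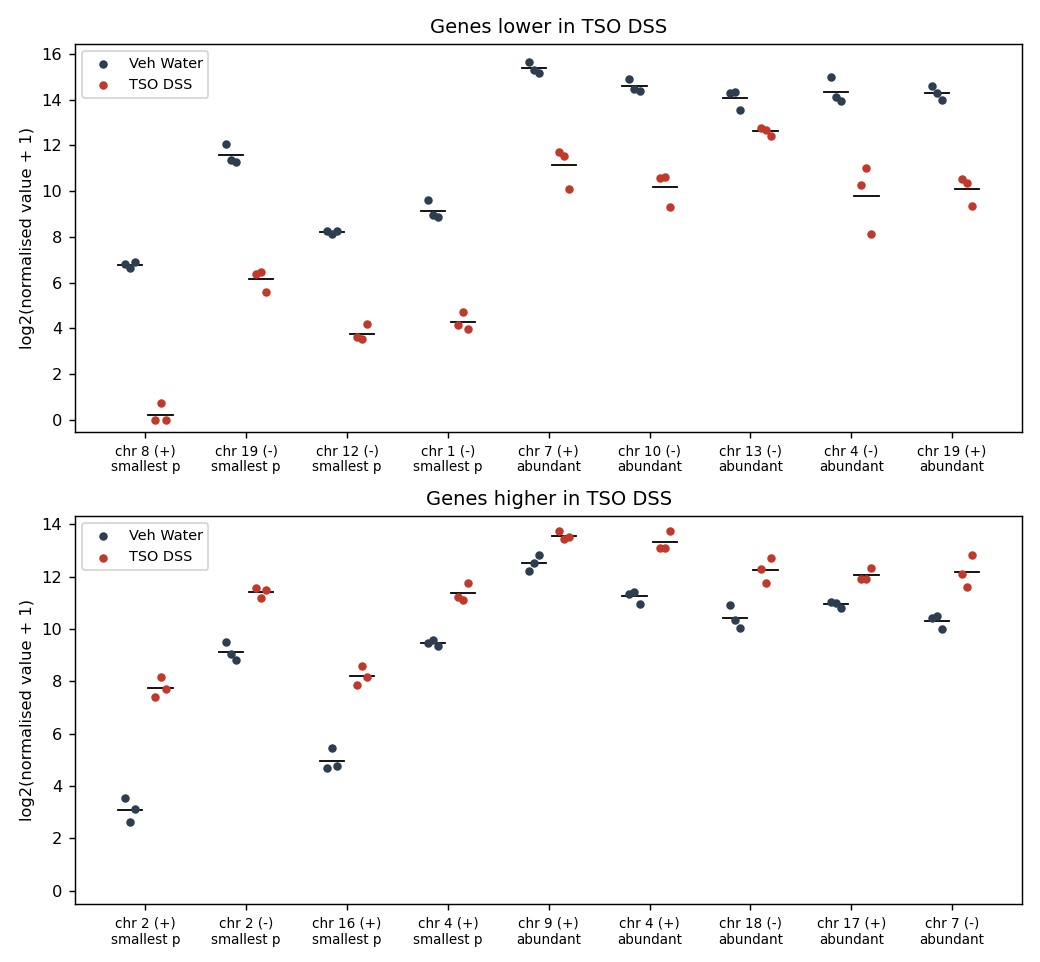
Normalised values, as log2(value + 1), of the 9 lower genes (top) and 9 higher genes (bottom) with the smallest adjusted p-values or the highest levels, labelled by chromosome and strand. Each point is a rabbit, in the order 1 to 3, with TSO DSS in red and Veh Water dark, and each black line the group mean (n = 3). Only genes without overlap between the groups could be named, so the gap between the points follows from the choice of genes.

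The higher genes with the smallest adjusted p-value both lie on chromosome 2. ENSOCUG00000001230, on the plus strand, had normalised values of 170, 288 and 206 in TSO DSS and of 10.7, 5.13 and 7.65 in Veh Water. It was 28.3-fold higher (log2 fold change 4.67, SE 0.362, limma adjusted p = 0.0108). ENSOCUG00000006113, on the minus strand, rose from 730, 527 and 445 to 2992, 2343 and 2895, which is 4.84-fold (log2 fold change 2.29, SE 0.216, limma adjusted p = 0.0108). The TSO DSS rabbits differed by less than a factor of 2 for either gene, and a choice by p-value favours such a small spread.

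The most abundant higher genes changed by smaller factors. The first, on the plus strand of chromosome 9, had values of 13790, 10980 and 11550 in TSO DSS and of 4715, 5894 and 7230 in Veh Water (log2 fold change 1.04, limma adjusted p = 0.0451), close to the threshold of 1, and it was not called by edgeR's quasi-likelihood test. The second, on the plus strand of chromosome 4, had values of 8851, 8653 and 13740 against 2610, 2743 and 1991 (log2 fold change 2.07, limma adjusted p = 0.0121). The other 3 of the 5, on the minus strand of chromosome 18, the plus strand of chromosome 17 and the minus strand of chromosome 7, had log2 fold changes of 1.81, 1.11 and 1.86. None of these 5 genes was near the floor in any library.

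The largest rises on the log2(value + 1) scale were uneven between the treated rabbits. A gene on the minus strand of chromosome 13 had values of 1619, 552 and 37.1 in TSO DSS rabbits 1 to 3 and of 2.67, 2.56 and 1.91 in Veh Water (log2 fold change 6.59, SE 1.32, limma adjusted p = 0.0408). A second gene on the same strand of chromosome 13 was highest in TSO DSS rabbit 2, with values of 586, 3194 and 146 against 21.4, 13.7 and 16.3 (log2 fold change 5.19, SE 1.05, limma adjusted p = 0.0428). Over the libraries of the remaining groups, scaled together as reads by TMM, the 2 genes had different patterns. The first had 1982, 380 and 882 scaled reads in TSO Water and 5.95, 35.4 and 14.0 in Veh DSS, so that every rabbit given ova was above every rabbit that was not, with TSO DSS rabbit 3 (46.5 scaled reads) near Veh DSS rabbit 2. Its log2 fold change in TSO Water against Veh Water was 7.82 (limma adjusted p = 0.0199). The second had 39.9, 20.8 and 41.9 scaled reads in TSO Water and 107, 24033 and 3353 in Veh DSS, so that it was high in every rabbit given DSS, to an extent that varied more than 100-fold between rabbits. Its change in Veh DSS against Veh Water did not pass the test (log2 fold change 6.61, limma adjusted p = 0.342). Another gene, on the plus strand of chromosome 17, was listed at 0 in all Veh Water libraries and had 26, 24 and 25 reads in TSO DSS. That is at least 14.4-fold higher if the zeros are true, but a 0 can be a failed estimate in these tables. The gene had 0, 54.0 and 0 scaled reads in TSO Water rabbits 1 to 3 and 0 in every Veh DSS library. In IEC of TSO DSS rabbits 1 to 3 it had 24, 0 and 26 reads.

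The level of the called genes in LPMC and in IEC was compared in libraries outside the comparison. In the 3 TSO Water rabbits, which had received ova and whose libraries did not enter the test, the reads of LPMC and IEC of the same rabbit were scaled together and their log2 difference was taken. The lower genes were mostly genes with more signal in LPMC than in IEC. Their median difference, LPMC minus IEC, was 2.61 on the log2 scale (quartiles 1.71 and 3.52), against 1.05 for the higher genes (0.0654 and 2.46) and 0.00898 over all genes tested (-0.390 and 0.767). The medians of the lower genes were 2.43, 2.06 and 3.14 in TSO Water rabbits 1 to 3. In all 3 rabbits, 410 of the 544 lower genes (75.4%) and 34 of the 89 higher genes (38.2%) exceeded IEC by more than 1 on the log2 scale, as did 14.8% of all genes tested. Higher in IEC by that margin in all 3 rabbits were 2 of the lower genes (0.368%), 3 of the higher genes (3.37%) and 290 of all genes tested (2.62%).

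**Figure D3:**
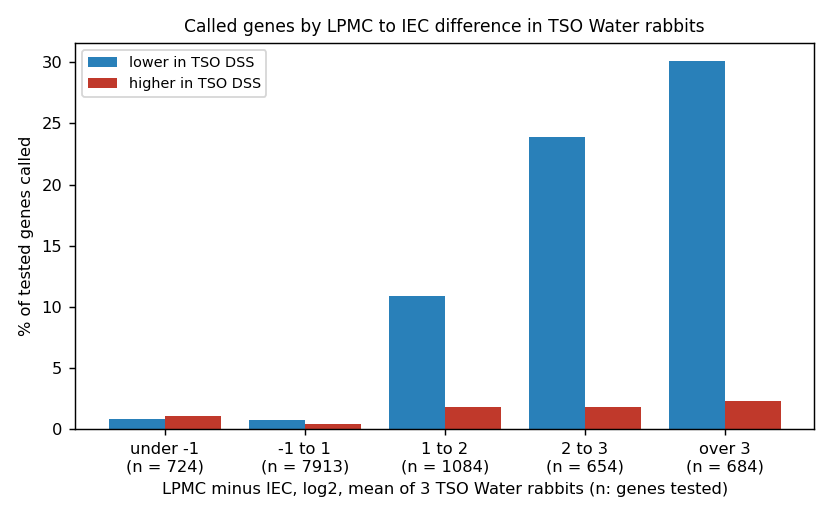
Percent of the tested genes called lower (blue) or higher (red) in LPMC of TSO DSS, in 5 classes of the log2 difference between LPMC and IEC in TSO Water rabbits, with the number of genes tested under each class. The percent lower goes from 0.829% of the genes with more signal in IEC to 30.1% of the genes more than 3 log2 units higher in LPMC, and the percent higher stays between 0.417% and 2.34%.

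Read by class, 206 of the 684 genes that were more than 3 log2 units higher in LPMC were called lower in TSO DSS (30.1%), as were 23.9% of those between 2 and 3 units and 10.9% of those between 1 and 2 units. Between -1 and 1 the share was 0.733% of 7913 genes. The 4 most strongly reduced of the abundant genes had differences of 2.70 (chromosome 7), 2.12 (chromosome 10), 3.78 (chromosome 4) and 2.07 (chromosome 19) in favour of LPMC. Over all lower genes named here the differences were 0.44 to 7.21, and they did not go with the size of the fall in every gene. The fifth abundant gene, on chromosome 13, which fell least, had a difference of 3.57. The gene on chromosome 12 with the largest fall on the log2(value + 1) scale had 0.44. A gene on the minus strand of chromosome 14 with a log2 fold change of -5.60 had 0.88. With TSO DSS rabbit 2 left out, 1398 genes were called lower and the share with LPMC above IEC by more than 1 in all 3 rabbits was 40.1%. With any other single library left out, apart from Veh Water rabbit 2, the share was 76.3% to 80.6%. Without Veh Water rabbit 2, limma called no gene.

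By position, the called genes were spread over the genome. Lower genes were called on every chromosome listed except chromosome 6, with none of 187 genes tested, and the mitochondrial genome, with none of 20. Elsewhere the share was 0.68% on chromosome 21, with 1 gene of 147, to 7.83% on chromosome 10, with 17 of 217. From a mean value of 3 in Veh Water upwards, the share of lower genes showed no steady trend with that mean. It was 3.33% from 3 to 15, 6.38% from 15 to 63, 6.22% from 63 to 255, 3.54% from 255 to 1023, 4.79% from 1023 to 4095 and 7.63% above. Below 3 it was 0%, where so few reads leave little room for a fall to be called.

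The most abundant transcripts of all were not called. A gene on the plus strand of chromosome 15 alone took 3.10% to 10.9% of the reads of a library, with values of 944000, 281600 and 869200 in TSO DSS and of 1022000, 511100 and 1014000 in Veh Water (log2 fold change -0.40, SE 1.22, limma adjusted p = 0.868). Of 20 mitochondrial genes tested, none was called by limma and 1 had an unadjusted p-value under 0.05, with log2 fold changes of -4.82 to -0.50.

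The TSO DSS libraries differed from each other more than the Veh Water libraries, and they also differed more in depth. The within-group SD of log2 values had a median of 0.379 in TSO DSS and of 0.271 in Veh Water, and 7447 genes (67.3%) had the larger SD in TSO DSS. Depth was 3685504 to 13831162 reads in TSO DSS and 11158189 to 14042281 in Veh Water, and few reads widen the SD of log2 values. TSO DSS rabbit 2, with the largest library of its group, lay closest to the controls. On the first principal component of the tested genes, which held 58.9% of the variance, TSO DSS rabbits 1 to 3 lay at 69.4, -6.27 and 116.5 and Veh Water rabbits 1 to 3 at -43.9, -71.4 and -64.4. Within TSO DSS a smaller library lay farther from the controls on this component. The part of depth in the spread and in this order was not tested. TSO DSS rabbit 2 was the highest of the 3 for 330 of the lower genes and the lowest of the 3 for 56 of the 89 higher genes. Among the controls, Veh Water rabbit 1, the one from room B, was the highest for 403 of the 544 lower genes, and rabbits 2 and 3 for 99 and 42. How often each rabbit was highest or lowest over all genes tested was not counted. On scaled reads, the median log2 difference of the lower genes from the Veh Water mean was 0.353, -0.011 and -0.349 in Veh Water rabbits 1 to 3. Over all genes tested it was 0.017, 0.019 and 0.0041. With 1 of these rabbits in room B, room and rabbit cannot be told apart. The median log2 difference from the Veh Water mean was -3.15, -2.57 and -3.24 in TSO DSS rabbits 1 to 3 over the lower genes and 2.25, 1.73 and 2.28 over the higher genes. These genes were called with rabbit 2 in the fit, so that its shift over them follows from the choice of genes.

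When TSO DSS rabbit 2 was left out, limma called 1091 genes that it did not call with all 6 libraries, 858 of them lower. Over these 858 genes the median log2 difference from the Veh Water mean was -2.16 in rabbit 1, -2.74 in rabbit 3 and -0.28 in rabbit 2. Rabbit 2 lay within the range of the Veh Water rabbits for 295 of them. These genes were chosen by rabbits 1 and 3, and their values are a description. Leaving out other libraries had the opposite effect on the counts. Without TSO DSS rabbit 1 there were 99 called genes, and without rabbit 3, whose library was the smallest, there were 465. Without Veh Water rabbit 1, the only rabbit of room B among the 6, there were 22, which is also the count within room A. Without Veh Water rabbit 3 there were 220, and without Veh Water rabbit 2 limma called 0 genes while 1806 had an unadjusted p-value under 0.05. A fit with 2 rabbits in a group has fewer samples to estimate the spread.

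**Figure D4:**
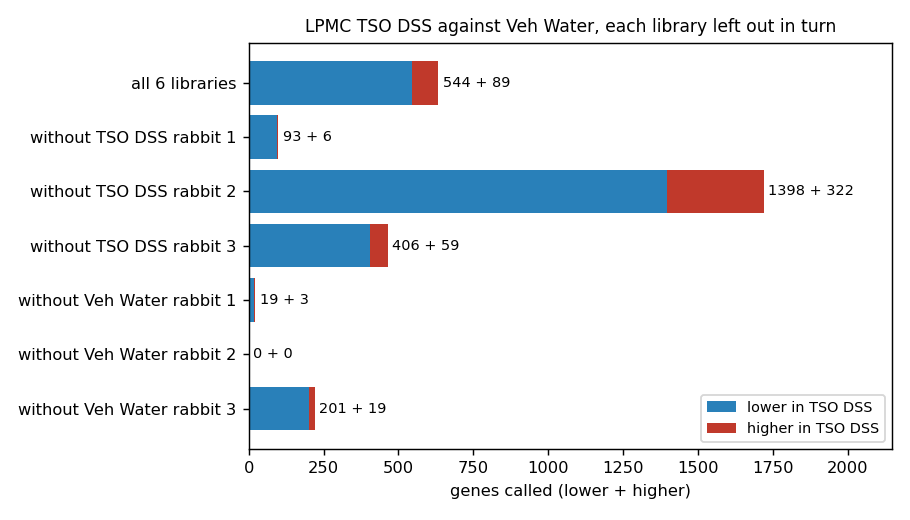
Number of genes called lower (blue) and higher (red) in TSO DSS relative to Veh Water with all 6 libraries and with each library left out in turn; the numbers beside the bars are lower + higher. The total goes from 0 without Veh Water rabbit 2 to 1720 without TSO DSS rabbit 2, and with all libraries it is 633.

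The called genes were also measured in the groups given a single agent. The comparisons of TSO DSS, Veh DSS and TSO Water with Veh Water share the same 3 control libraries, so that only the values of each are set side by side. Limma called 14 genes in Veh DSS (0.125% of 11218 tested) and 3 in TSO Water (0.0268% of 11175). Over the 544 lower genes the median log2 fold change was -1.07 in Veh DSS, -0.22 in TSO Water and -3.05 in TSO DSS. Over the higher genes it was 1.53 in Veh DSS (88 tested), 1.33 in TSO Water (87 tested) and 2.07 in TSO DSS. The genes were chosen for their levels in these same Veh Water libraries, which favours differences of the same sign in the other groups, and nothing is read from the signs.

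Single rabbits show how uneven the group given DSS alone was. The lower genes held 4.25%, 1.63% and 3.79% of the non-mitochondrial reads in Veh DSS rabbits 1 to 3 and 4.47%, 4.55% and 5.45% in TSO Water rabbits 1 to 3. The median log2 difference of the lower genes from the Veh Water mean, on scaled reads, was -0.59, -1.999 and -0.74 in Veh DSS and -0.44, -0.29 and 0.05 in TSO Water. Veh DSS rabbit 2 therefore lay closest to the TSO DSS rabbits, which were at -3.20, -2.66 and -3.31. ENSOCUG00000000092 had 3440, 360 and 2184 scaled reads in Veh DSS, 2866, 2392 and 2185 in TSO Water and 100, 108 and 58.9 in TSO DSS. The higher genes held 0.655%, 1.48% and 1.46% in Veh DSS and 1.18%, 0.590% and 0.845% in TSO Water. Of these 6 values, 3 were above every TSO DSS rabbit.

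**Figure D5:**
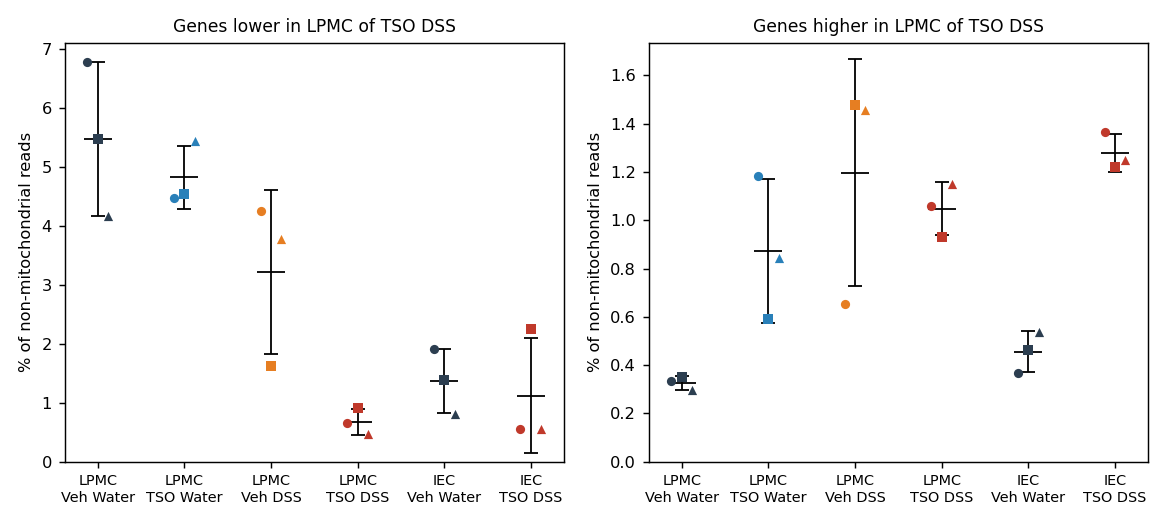
Share of the non-mitochondrial reads held by the 544 lower genes (left) and the 89 higher genes (right) in LPMC and IEC libraries, with rabbits 1 to 3 of a group as circle, square and triangle and the mean and SD in black (n = 3). In LPMC the lower genes take 0.465% to 0.913% in TSO DSS and 4.17% to 6.78% in Veh Water, with Veh DSS rabbits 2 and 3 between them at 1.63% and 3.79%.

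Tested directly against the other groups, TSO DSS differed from TSO Water but not detectably from Veh DSS. These comparisons use the same TSO DSS libraries as above. The genes named were chosen by their values in those libraries, which favours a difference in the same direction. Their results here are a description and no independent test. Against TSO Water, limma called 488 of 11237 genes (4.34%), 470 lower (4.18%) and 18 higher (0.16%) in TSO DSS. ENSOCUG00000000092 was lower by a log2 fold change of -4.80 (limma adjusted p = 0.00285) and ENSOCUG00000008813 by -6.62 (limma adjusted p = 0.00378). All 5 abundant lower genes passed as well, with log2 fold changes of -4.25 to -2.65. The higher genes ENSOCUG00000001230 and ENSOCUG00000006113 had log2 fold changes of 1.03 and 0.03 against TSO Water (limma adjusted p = 0.579 and 0.983). With TSO Water rabbits 1, 2 or 3 left out, 69, 18 and 14 genes were called, without TSO DSS rabbit 1 there were 84, and without TSO DSS rabbit 2 there were 1131.

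Against Veh DSS, limma called 0 of 11265 genes and edgeR's quasi-likelihood test 0, while 1066 genes (9.46%) had an unadjusted p-value under 0.05 by limma and 1024 by edgeR. Without TSO DSS rabbit 2, limma called 648 genes. The fold changes of single genes were large in size, with wide errors. ENSOCUG00000000092 had a log2 fold change of -3.97 (limma adjusted p = 0.376), and the gene on chromosome 7 that led the abundant lower genes had -3.69 (limma adjusted p = 0.32). ENSOCUG00000006113 had -0.53 (limma adjusted p = 0.71). ENSOCUG00000008813 had 254, 9.25 and 33.4 scaled reads in Veh DSS rabbits 1 to 3, a wider range than in the other LPMC groups, and its log2 fold change was -5.14 (limma adjusted p = 0.38).

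In IEC of the same 6 rabbits, the genes higher in LPMC had large changes and the genes lower in LPMC had small ones in the median. In IEC, limma called 401 of 11225 genes (3.57%) in TSO DSS against Veh Water. Over the genes called higher in LPMC, the median log2 fold change in IEC was 2.49 (88 tested), and over those called lower it was -0.41 (496 tested), against -0.02 over all genes tested in IEC. ENSOCUG00000001230 rose in IEC from 19.2, 12.8 and 9.65 to 485, 370 and 354 (log2 fold change 4.80, limma adjusted p = 0.00182). ENSOCUG00000006113 rose in IEC from 117, 351 and 211 to 4443, 4216 and 1839 (log2 fold change 3.98, limma adjusted p = 0.00852). The difference of the changes between LPMC and IEC passed the test (limma adjusted p-value under 0.05, with no minimum size) for 220 of 11553 genes (1.9%). It was more negative in LPMC for 197 genes (1.71%) and more positive for 23 (0.199%). The count depended on single rabbits, with 0 genes without TSO DSS rabbit 1 (1637 at an unadjusted p-value under 0.05 by limma), 389 when TSO DSS rabbit 2 was left out, and 30, 5 and 82 when Veh Water rabbits 1, 2 and 3 were. For ENSOCUG00000001230 and ENSOCUG00000006113 the difference was 0.00 and -1.64 on the log2 scale and did not pass (limma adjusted p = 0.999 and 0.171).

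The lower genes varied between rabbits in IEC of both groups. Their median log2 difference from the mean of IEC Veh Water was -0.80 and -0.97 in IEC of TSO DSS rabbits 1 and 3 and 0.82 in rabbit 2, and they held 0.547%, 2.25% and 0.562% of the non-mitochondrial IEC reads in rabbits 1 to 3. In IEC of Veh Water rabbits 1 to 3 the median differences were 0.51, 0.07 and -0.49, and the shares were 1.91%, 1.39% and 0.815%. The gene on chromosome 7 had values of 2832, 19940 and 1497 in IEC of TSO DSS and of 22840, 18300 and 8128 in IEC of Veh Water. ENSOCUG00000000092 had values of 140, 1613 and 119 against 3788, 1946 and 976. In IEC, rabbit 2 was thus within the control range for both genes while rabbits 1 and 3 were below it. The part that carry-over of cells between the LPMC and IEC preparations has in these values was not tested.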

How the data were processed

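RNA of LPMC and IEC was sequenced after poly(A) selection, without strand information. The labels give single-end reads of 100 bases, whereas the study's methods describe paired inserts. The submitters' processing notes name FastQC and the build OryCun2.0. The aligner and the counting program are not given in the sources used here, so reads of overlapping or antisense genes cannot be told apart. The authors deposited 1 table per treated group and cell type, with a normalised signal per gene and library. They also deposited log2 ratios, p-values and FDR values of their own, which were not used. Each table was scaled separately.

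The values were whole reads times a factor. All values under 1000 (100%) came out within 0.1 of a whole number, and 1 read was worth 0.657 to 2.48 in the 6 libraries. Limma 3.58.1 (trend) in R 4.3.3 was run on log2(value + 1) over the 11059 of 17318 genes that the authors mark as present. Fold changes on this scale understate those of low genes. Reads scaled together by TMM served for comparisons across tables. The read count tests were edgeR 4.0.16 and DESeq2 1.42.0. Scripts were tested on simulated data. A name table of 38822 genes matched 0 identifiers, so gene lists, markers and sequences were not used. Figures were drawn with matplotlib 3.10.9. Rabbits with the same number in different groups are different animals, and the p-values rest on 3 animals a group. Totals per library, given above, cover counting error only.

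Genes were named by a rule, from the called genes without overlap between the groups. The rule took the 6 largest changes, the 5 highest means and the 4 smallest adjusted p-values in each direction, the 4 lower genes at or under 3 reads with the highest Veh Water mean, and the 5 most abundant genes of all. The comparison, the rule and the lists were chosen with earlier results of these data known. The choice of identifiers to print, the shares of reads, the difference between LPMC and IEC in TSO Water and the genes called without TSO DSS rabbit 2 were chosen after the values were seen. Alternatives were the pseudocount, filters, scalings, tests, a replicate block, room A, thinned reads, all 12 LPMC libraries and each library left out.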

Additional observations from a re-analysis of the deposited data

Results flagged for a closer look

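The change in TSO DSS against Veh Water differed between LPMC and IEC for 220 of 11553 genes (1.9%), by an interaction of cell type and group in limma at an adjusted p-value under 0.05, with no minimum size of the difference. The count was 165 with a pseudocount of 0.1. It was 0 without TSO DSS rabbit 1, 30, 5 and 82 without Veh Water rabbits 1, 2 and 3, and 389 when TSO DSS rabbit 2 was left out.

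Among the genes named by the rule, 5 passed this test. The abundant lower gene on the minus strand of chromosome 13 had a difference, LPMC minus IEC, of -2.66 (limma adjusted p = 0.0306), with values of 7565, 8394 and 13400 in IEC of TSO DSS against 6038, 2306 and 4508 in IEC of Veh Water. The rise in IEC did not pass by itself (log2 fold change 1.25, limma adjusted p = 0.171). In LPMC of TSO Water the gene had 46084, 44493 and 57965 scaled reads, against 24990, 25225 and 14710 in Veh Water and 8557, 7903 and 6787 in TSO DSS. Its change in TSO Water against Veh Water did not pass either (log2 fold change 1.24, limma adjusted p = 0.269). The genes at the floor on the plus strand of chromosome 9 and the minus strand of chromosome 4 had differences of -6.72 and -6.69 (limma adjusted p = 0.0152 and 0.0266). Both had 0 to 8 reads in every IEC library of either group and could not fall there, so that these differences restate the fall in LPMC. A higher gene on the plus strand of chromosome 4 rose further in IEC, with a difference of -1.98 (limma adjusted p = 0.0292) and values of 24700, 27820 and 39960 against 2227, 1733 and 1461 in IEC. A second higher gene on the same strand of chromosome 4 had a difference of -1.64 (limma adjusted p = 0.0415), with 6398, 6595 and 10590 against 832, 569 and 546 in IEC.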

How the results depend on the processing

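The 633 called genes (89 higher, 544 lower) became 82 (7 and 75) without a filter on low genes, 1120 (248 and 872) by DESeq2, 72 (5 and 67) with the replicate number as a block, 22 (3 and 19) in room A only and 1122 (170 and 952) with all 12 LPMC libraries in the fit. With 1 library left out the counts lay between 0 and 1720 in all, 0 and 322 higher, and 0 and 1398 lower. A pseudocount of 0.1, a minimum of 10 reads in 3 libraries, scaling by library size, TMM, leaving out mitochondrial genes, edgeR's quasi-likelihood test on the recovered reads (544, of them 80 higher and 464 lower) and thinned reads gave 502 to 630. Scaling by library size moved the median log2 fold change of all genes to 0.05. Lower genes remained the majority, at 77.9% to 93.9% of the calls, in every setting that gave a call. The causes were not tested. The fit without a filter tests 17318 genes, and each fit without a library has fewer samples.

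By the labels, same-numbered libraries of different groups came from different rabbits, so the numbers do not pair them. Their deviations correlated at 0.11, 0.32 and -0.18. Against TSO Water the block gave 204 genes in place of 488, and leaving out 1 library gave 14 to 1131. Against Veh DSS the block gave 0, and leaving out 1 library gave 0 to 648. The interaction gave 194 with the rabbit as a block and 0 to 389 with a rabbit left out. Leaving out a library moved the share of lower genes that were higher in LPMC of TSO Water, an alternative added after the data were seen, to between 40.1% and 80.6%.

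Of the values of named genes under the alternatives, 441 stayed on their side of the threshold, 162 lost the call and 5 changed sign. The chromosome 15 gene lay between -0.73 and 0.16 with 1 library left out, with 0.16 without TSO DSS rabbit 2. The mitochondrial gene listed at 0 in 2 libraries reached 2.17 in room A only and without Veh Water rabbit 1, which are the same libraries, 5.29 without TSO DSS rabbit 2 and 2.75 without Veh Water rabbit 3, and with 1 library left out it went from -7.14 to 5.29. Neither gene was called. The 4 lower genes with the smallest adjusted p-value kept the call in 17 of 18 settings and lost it without Veh Water rabbit 2, at an adjusted p-value of 0.0764 by limma. Other called genes that were named kept it in 6 to 17 settings. The largest fall on the log2(value + 1) scale (chromosome 12) and the most abundant higher gene (chromosome 9) kept the call in 8 of 18 settings and lost it by edgeR. The largest rises on that scale (both on chromosome 13) kept it in 10 and 9. These ranks can change with the pseudocount. The depth of TSO DSS rabbit 3, 3685504 reads, limits what can be seen of genes at a few reads.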
